A study of Homo sapiens with 6 samples.

Results

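Voltage-gated calcium channels are described here through 10 genes of the family, as read on 6 one-colour Affymetrix expression arrays from SH-SY5Y, a neuron-like line derived from a human neuroblastoma. The 10 genes were CACNA1A, CACNA1B, CACNA1C, CACNA1D, CACNA1E, CACNA1G, CACNA1H, CACNA2D1, CACNA2D2 and CACNB3. Every probe set annotated to exactly 1 gene symbol among these was taken, which gave 30 of the 49293 probe sets that are not Affymetrix controls, and 10 of the 18132 genes named by such probe sets. The tested cultures received 100 µM manganese for 24 h (3 arrays), a dose the labels describe as the median lethal concentration divided by 5, and the control cultures were untreated (3 arrays). The treatment protocol field gives the manganese dose on all 6 samples, so the groups follow the source name and the treatment label, which reads as untreated for the controls. All cultures were of the same line and grown with fetal bovine serum in a mixture of MEM and F12. The labels number the biological replicates of each group but do not say whether the cultures were started separately, so the p-values measure only the spread between these arrays.

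A voltage-gated calcium channel opens when the membrane depolarizes and lets calcium into the cell. Its pore is a single large alpha-1 subunit, which sets the channel type: CACNA1C and CACNA1D encode L-type channels, CACNA1A P/Q-type, CACNA1B N-type, CACNA1E R-type, and CACNA1G and CACNA1H the low-voltage-activated T-type. The alpha-2-delta subunits (CACNA2D genes) and beta subunits (CACNB genes) help the high-voltage-activated pores reach and stay at the surface membrane. Manganese ions can themselves pass through calcium channels, which is the basis of manganese-enhanced imaging of active neurons. In neurons the N-type and P/Q-type channels trigger transmitter release, and L-type channels couple activity to gene expression.

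No calcium channel probe set passed an adjusted p of 0.05 between manganese-exposed and untreated cells. The lowest unadjusted p-values were those of CACNA2D2, whose 2 probe sets measured 0.59 and 0.55 lower in manganese on the log2 scale, with every manganese array below every control array. A probe set of CACNA1B and one of the 5 tested for CACNA1C also had manganese arrays below all controls, but the other tested probe sets of both genes did not. Over all probe sets tested, 9.59% had manganese arrays below all controls. The signals of CACNA1D, CACNA1E, CACNA1H and CACNA2D1 stayed near or below the dim end of the arrays in both groups. In RNA from whole cultures, fewer cells of a kind and less RNA per cell cannot be told apart.

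Probe sets were tested where at least 3 of the 6 arrays read them above the array's own 40th percentile, a log2 signal between 4.37 and 4.40. Of the 30 calcium channel probe sets 15 passed, 14 of them above the percentile on all 6 arrays and 1 of CACNA1C on 5. They belong to 6 genes: CACNA1A with 1 of its 3 probe sets, CACNA1B with both, CACNA1C with 5 of 8, CACNA1G with 2 of 3, CACNA2D2 with both and CACNB3 with all 3. Of the other 15, 13 lay below the percentile on every array, and 2, of CACNA1E and CACNA1H, lay above it on a single manganese array. Over the whole array 60.6% of probe sets passed.

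**Figure D1:**
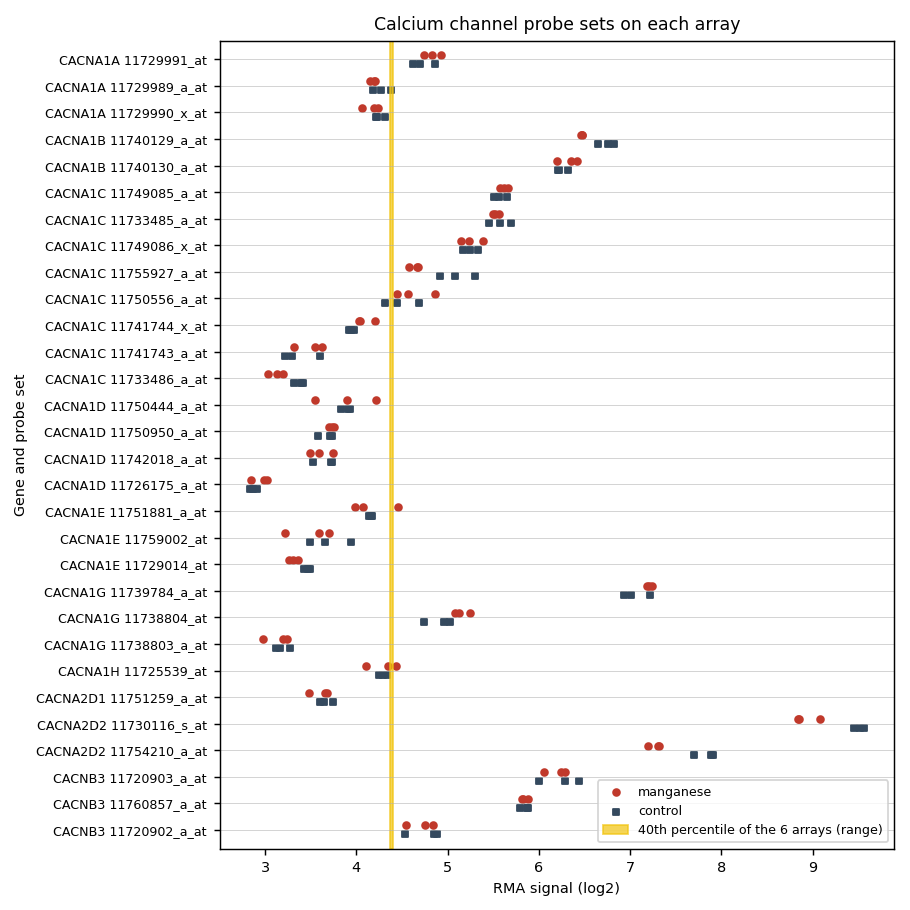
RMA signal (log2, horizontal axis) of all 30 calcium channel probe sets (rows) on the 3 manganese arrays (circles) and the 3 control arrays (squares), with the range of the 40th percentiles of the 6 arrays as a vertical band. The 4 probe sets of CACNA1D and the single one of CACNA2D1 lie left of the band on every array, and the 2 of CACNA2D2 lie right of it with the groups apart.

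Of the 15 probe sets tested, 0 passed in limma's test with Benjamini-Hochberg adjustment over all 29871 probe sets, of which 32 (0.107%) passed, 31 higher (0.104%) and 1 lower (0.00335%). At an unadjusted p under 0.05 there were 4, all of them lower in manganese, against 7.13% of all probe sets lower at that level and 5.39% higher. The 4 come from 3 genes, and the 2 of CACNA2D2 read the same transcript pool, so they are not separate replicates. Groups did not overlap for 4 probe sets with manganese lower and 1 with manganese higher, against 9.59% and 9.4% of all probe sets. The median difference over the 15 was -0.01, and over all probe sets tested it was 0.01. Of the 15, 7 differences were positive and 8 negative.

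**Figure D2:**
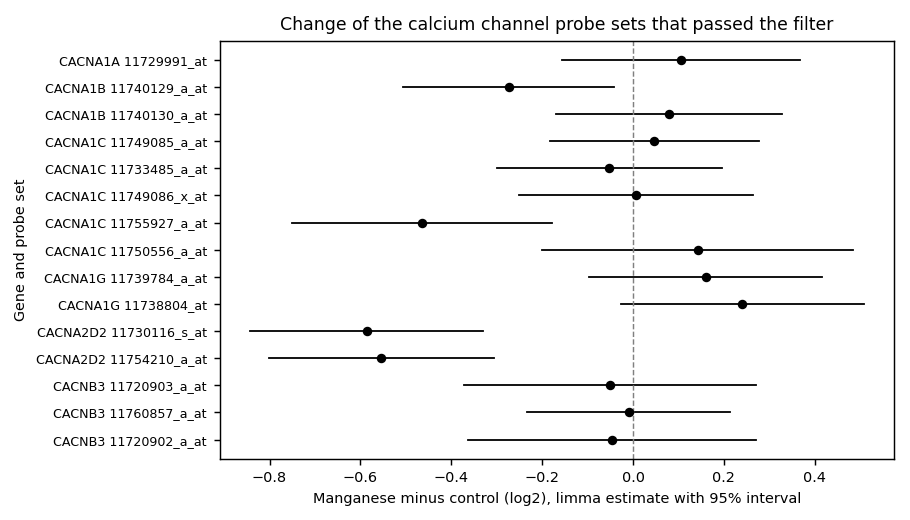
Log2 difference, manganese minus control, for the 15 calcium channel probe sets that passed the filter (points, limma estimates from 3 arrays a group; lines, 95% intervals not adjusted for multiple tests). The intervals of 4 probe sets lie wholly below 0, those of CACNA2D2 at -0.84 to -0.33 and -0.80 to -0.31 among them, and none lies wholly above 0.

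CACNA2D2 encodes an alpha-2-delta subunit, the class of protein that gabapentin binds. Its probe set 11730116_s_at read 8.85, 8.84 and 9.08 on the manganese arrays, against 9.51, 9.56 and 9.45 on the control arrays. Its other probe set, 11754210_a_at, read 7.20, 7.31 and 7.32 in manganese, against 7.70, 7.90 and 7.88 in controls. At both probe sets all 3 manganese values lay below all 3 control values, with a gap larger than the spread within either group.

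The means of 11730116_s_at were 8.92 ± 0.13 in manganese and 9.51 ± 0.06 in controls (SD, n = 3 each), a log2 difference of -0.59 ± 0.11 (SE). The limma adjusted p was 0.154 and the unadjusted p 0.000719, and on the linear scale the manganese signal was 0.666 of the control signal. For 11754210_a_at the means were 7.28 ± 0.07 and 7.83 ± 0.11, a difference of -0.55 ± 0.11 (SE), at which limma gave an adjusted p of 0.162. The suffix of the first probe set marks probes that can match more than a single transcript, so other transcripts may add to its signal, whereas the suffix of the second marks variants of the same gene.

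CACNA2D2 differed by a similar amount when arrays were left out. With each array left out in turn the differences lay between -0.66 and -0.55 at 11730116_s_at and between -0.62 and -0.52 at 11754210_a_at. Spike-in RNA added before labelling was dimmer on 2 of the control arrays, and against control 2, whose spike-ins matched those of the manganese arrays, the differences were -0.64 and -0.63. Over the alternative settings the limma adjusted p ranged from 0.0888 to 0.646 at 11730116_s_at and from 0.0937 to 0.660 at 11754210_a_at, so neither passed under any setting that was run.

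The CACNA2D2 and CACNA1B promoters are shown because these genes had the alpha-2-delta and N-type pore probe sets with manganese arrays below all controls. They are the 250 bases before the transcription start in RefSeq (GRCh38.p14), 5′ to 3′ on the gene's strand, with the core of the metal response element, TGCACNC or TGCGCNC on either strand, in capitals. That element is the binding site of the metal-sensing factor MTF1. CACNA2D2 has 2 listed starts, at chr3:50503635-50503884 and chr3:50504245-50504494 on the minus strand, and CACNA1B has 1, at chr9:137877532-137877781 on the plus strand.
CACNA2D2, chr3:50503635-50503884: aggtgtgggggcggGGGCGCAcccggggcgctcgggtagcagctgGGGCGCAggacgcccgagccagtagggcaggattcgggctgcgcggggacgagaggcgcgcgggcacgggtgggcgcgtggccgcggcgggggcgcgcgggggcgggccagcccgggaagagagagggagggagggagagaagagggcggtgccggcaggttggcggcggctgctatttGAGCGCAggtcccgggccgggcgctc
CACNA2D2, chr3:50504245-50504494: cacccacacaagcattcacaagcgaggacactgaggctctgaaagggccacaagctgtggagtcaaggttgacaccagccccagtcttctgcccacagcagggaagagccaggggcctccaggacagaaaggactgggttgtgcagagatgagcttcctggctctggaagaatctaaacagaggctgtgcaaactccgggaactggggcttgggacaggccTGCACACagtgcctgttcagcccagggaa
CACNA1B, chr9:137877532-137877781: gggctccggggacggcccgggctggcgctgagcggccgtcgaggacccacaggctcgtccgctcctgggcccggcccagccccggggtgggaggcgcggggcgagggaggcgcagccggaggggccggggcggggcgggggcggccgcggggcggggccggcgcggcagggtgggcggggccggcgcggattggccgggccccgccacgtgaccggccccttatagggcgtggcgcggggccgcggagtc
The core occurs 3 times before the CACNA2D2 start at the lower coordinates, 1 time before the other CACNA2D2 start and 0 times before that of CACNA1B. Of all 35116 RefSeq windows of this length 24.8% hold it, and of the 11 windows listed for 8 of the calcium channel genes 6 do. The windows differ in base composition, at 78.8% and 58.0% G and C for CACNA2D2 and 85.2% for CACNA1B, against a median of 58.0% over all windows. The GC box, GGGCGG on either strand, occurs 3, 0 and 5 times in the 3 windows shown and in 42.6% of all windows, and no base lies in both motifs. These matches describe letters only. CACNA1C also had a tested probe set with manganese arrays below all controls. Its window, not shown, holds the core 3 times at 85.6% G and C. Windows of CACNA1G and CACNA1H are not used here.

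CACNA1B encodes the pore of the N-type channel, the target of omega-conotoxin, and its 2 probe sets differed in direction. The probe set 11740129_a_at read 6.47, 6.47 and 6.46 in manganese, against 6.76, 6.65 and 6.82 in controls. The manganese arrays lay close together and below every control. Its means were 6.47 ± 0.01 in manganese and 6.74 ± 0.09 in controls (SD, n = 3 each), a difference of -0.27 ± 0.10 (SE) and, in limma, an adjusted p of 0.354. The other probe set, 11740130_a_at, read 6.20, 6.42 and 6.36 in manganese, against 6.32, 6.20 and 6.22 in controls, and its groups overlapped. Its difference was 0.08 with a 95% interval of -0.17 to 0.33. Against control 2 alone the difference at 11740129_a_at was -0.18. Whether the 2 probe sets differ from each other was not tested.

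CACNA1C, the L-type pore gene of heart and brain, had 8 probe sets, and 5 were tested. At 11755927_a_at the manganese arrays read 4.67, 4.58 and 4.66, against 5.30, 4.92 and 5.08 on the controls. The groups did not overlap, and control 1, the array that stood apart from the others over all genes, was the highest. The means were 4.64 ± 0.05 in manganese and 5.10 ± 0.19 in controls (SD, n = 3 each), a difference of -0.46 ± 0.12 (SE) and, in limma, an adjusted p of 0.250. It was -0.36 without control 1 and -0.28 against control 2 alone. The manganese values sat just over the percentile of the filter, which limits how large a difference could be read.

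At the probe set of CACNA1C with the highest mean, 11749085_a_at, the values were 5.58, 5.66 and 5.62 in manganese, against 5.56, 5.65 and 5.51 in controls, with overlapping groups. The difference was 0.05 with a 95% interval of -0.18 to 0.28. The other 3 tested probe sets of CACNA1C also had overlapping groups. Their differences were -0.05 at 11733485_a_at, 0.01 at 11749086_x_at and 0.14 at 11750556_a_at, the last on the control arrays at 4.45, 4.31 and 4.69 and so partly below the percentile. Among the 3 dim probe sets of CACNA1C, 11733486_a_at read 3.13, 3.20 and 3.03 in manganese, against 3.39, 3.32 and 3.42 in controls, all under the percentile. The dim 11741744_x_at went the other way without overlap, at 4.21, 4.04 and 4.03 in manganese, against 3.92, 3.94 and 3.97 in controls. The last dim one, 11741743_a_at, differed by 0.12 in the fit without a filter, with overlapping groups. Of the 5 tested probe sets of CACNA1C, 1 had groups that did not overlap, and the probe sets can read different transcript variants.

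CACNA1G encodes a T-type pore, a channel that opens near the resting potential. Its probe set 11739784_a_at read 7.19, 7.21 and 7.24 in manganese, against 6.94, 7.21 and 7.01 in controls. Control 2 lay among the manganese arrays, and the other controls were lower. The difference was 0.16 with a 95% interval of -0.10 to 0.42 and a limma adjusted p of 0.581, and against control 2 alone it was -0.00066. At 11738804_at the values were 5.24, 5.13 and 5.09 in manganese, against 4.75, 5.03 and 4.96 in controls. This was the tested calcium channel probe set with manganese arrays above every control, named after its values were seen, with a difference of 0.24 ± 0.12 (SE) and, in limma, an adjusted p of 0.438. Against control 2 alone that difference was 0.12. The third probe set, 11738803_a_at, was dim on all arrays, between 2.98 and 3.28.

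CACNA1A, the P/Q-type pore gene, was tested at 11729991_at, which read 4.83, 4.93 and 4.74 in manganese, against 4.62, 4.69 and 4.87 in controls. The groups overlapped, and the difference of 0.11 had a 95% interval of -0.16 to 0.37. Its other 2 probe sets lay below the percentile on all arrays.

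**Figure D3:**
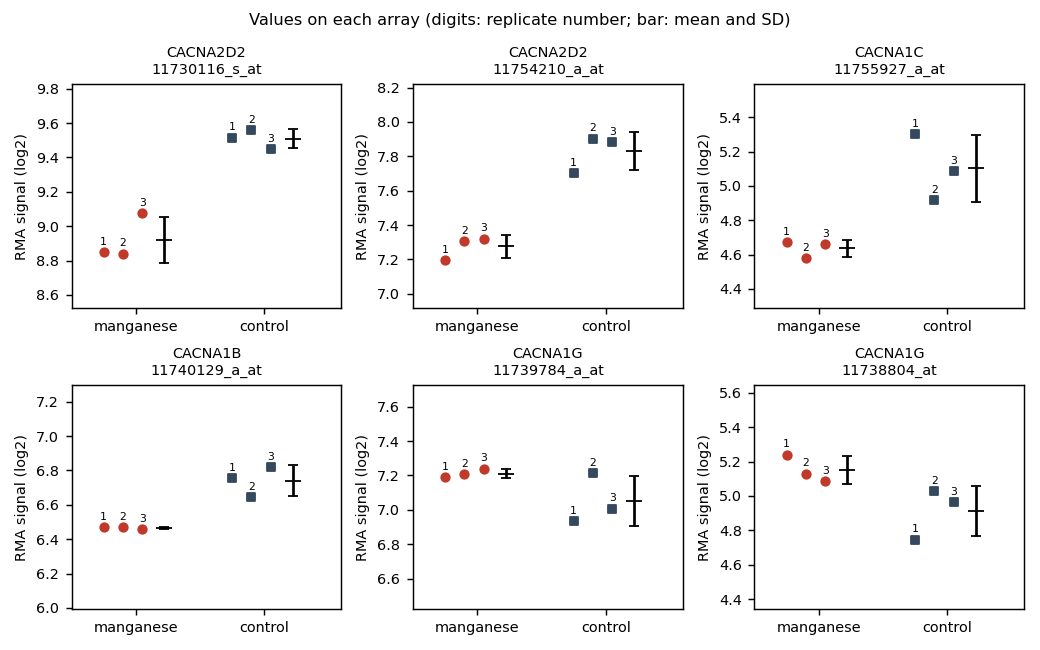
RMA signal (log2, vertical axis, each panel spanning 1.3 units) on the manganese arrays (circles) and the control arrays (squares) for 6 probe sets, with the replicate number beside each point and the mean and SD (n = 3) as a bar. The groups are apart at both CACNA2D2 probe sets, at CACNA1B 11740129_a_at, at CACNA1C 11755927_a_at and at CACNA1G 11738804_at, and overlap at CACNA1G 11739784_a_at.

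CACNB3 encodes a beta subunit, a cytoplasmic partner of high-voltage-activated pores. Its 3 probe sets all passed the filter, and all had overlapping groups. At 11720903_a_at the values were 6.29, 6.24 and 6.05 in manganese, against 6.00, 6.44 and 6.28 in controls. The highest and the lowest of the 6 were both controls. The difference was -0.05 with a 95% interval of -0.37 to 0.27, and the other probe sets gave -0.01 at 11760857_a_at (95% interval -0.23 to 0.21) and -0.05 at 11720902_a_at.

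The 4 genes with no tested probe set cover the L-type pore CACNA1D, the R-type pore CACNA1E, the T-type pore CACNA1H and the alpha-2-delta subunit CACNA2D1. CACNA1D had 4 probe sets, all under the percentile, with values between 2.84 and 4.22. At 11750444_a_at, the one with the highest mean, CACNA1D read 4.22, 3.90 and 3.54 in manganese, against 3.83, 3.91 and 3.93 in controls. CACNA1E had 3 probe sets, with values between 3.21 and 4.46. At 11751881_a_at it read 3.99, 4.46 and 4.08 in manganese, against 4.17, 4.16 and 4.14 in controls, and only manganese 2 exceeded the percentile. At these probe sets of CACNA1D and CACNA1E the controls lay within the range of the manganese arrays. The dim CACNA1E probe set 11729014_at read 3.36, 3.31 and 3.26 in manganese, against 3.47, 3.50 and 3.42 in controls, without overlap. Of the 15 dim calcium channel probe sets, 2 had manganese arrays below all controls and 1 above. The share over all dim probe sets was not computed. CACNA1H read 4.10, 4.43 and 4.35 in manganese, against 4.29, 4.25 and 4.33 in controls, at its single probe set. CACNA2D1 read 3.66, 3.48 and 3.68 in manganese, against 3.61, 3.75 and 3.65 in controls. A signal this dim gives no measure of absence, and a change in these genes could not be read well. In the fit without a filter, the differences of all 15 dim calcium channel probe sets lay between -0.26 and 0.15, 9 of them negative and 6 positive. By that fit limma called 0 of the 30 probe sets after adjustment, against 0.0588% of all 49293. At an unadjusted p under 0.05 there were 5, all lower, against 5.86% of all probe sets lower at that level, and the additional one was CACNA1C 11733486_a_at.

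**Figure D4:**
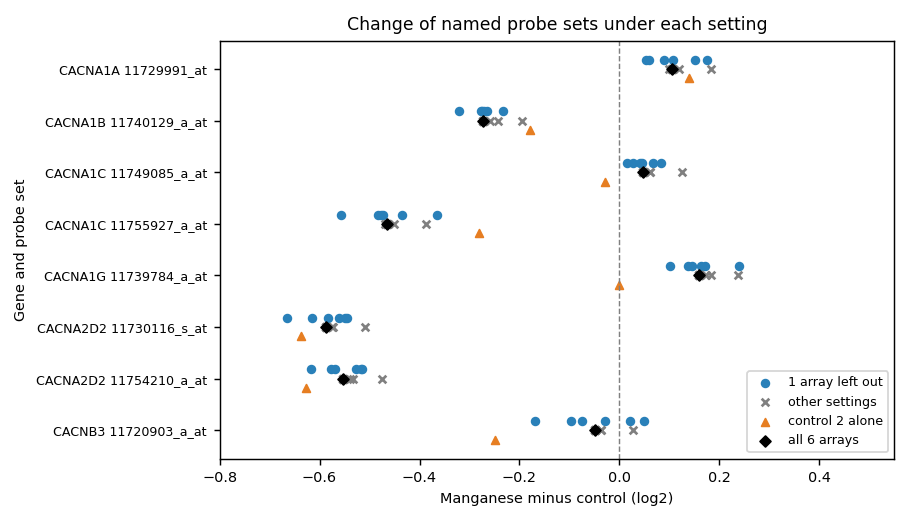
Log2 difference, manganese minus control, of 8 calcium channel probe sets under each setting: all 6 arrays (diamonds), 1 array left out (circles), control 2 as the only control (triangles) and the other settings (crosses). Both CACNA2D2 probe sets stay between -0.66 and -0.48, CACNA1C 11755927_a_at reaches -0.28, and CACNB3 lies on both sides of 0.

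The rest of the calcium channel family showed no probe set past the threshold. Of 15 other subunit genes analysed, 11 had a tested probe set, and 0 of their 15 tested probe sets passed in limma or had an unadjusted p under 0.05. The lowest p was that of CACNA1I, the T-type pore gene beside CACNA1G and CACNA1H, which read 6.34, 6.63 and 6.37 in manganese, against 6.07, 6.33 and 6.21 in controls at 11762360_at. Every manganese value lay above every control, by a margin of less than 0.01, and the difference was 0.24 with an adjusted p of 0.467. Of the 15 tested probe sets, 1 had manganese above all controls and 0 below, against 9.4% and 9.59% of all probe sets tested. CACNG8, a regulator of AMPA receptors classed with the gamma subunits, differed by -0.15, CACNG1, the gamma subunit of skeletal muscle, by 0.14, and CACNA2D4 by -0.11, all with overlapping groups. CACNA1F, CACNA1S, CACNA2D3 and CACNG3 had no tested probe set.

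Proteins that bind or tune calcium channels were read by 68 tested probe sets of 27 genes, and 0 passed in limma. Of the 68, 2 were higher and 5 lower at an unadjusted p under 0.05, against 5.39% and 7.13% of all probe sets tested. The median difference of the 68 was 0.00, with 34 positive and 34 negative. Groups did not overlap for 6 of the 68 with manganese higher and 4 with manganese lower, against 9.4% and 9.59% of all probe sets tested. REM2, a small GTPase that reduces calcium currents, had manganese arrays above all controls at its 3 tested probe sets. These read the same gene, so they are not separate replicates. At 11729533_s_at it read 6.92, 6.84 and 6.70 in manganese, against 6.13, 6.63 and 6.30 in controls, a difference of 0.47 with an adjusted p of 0.301. CAMK2G, a subunit of the calmodulin-dependent kinase that acts on L-type channels, gave -0.28 at 11717268_a_at, while its 7 tested probe sets ranged from -0.29 to 0.14. SNAP25, the release protein that N-type and P/Q-type channels bind, gave -0.80 at 11733727_s_at, where control 1 read 10.22 and the other controls 9.20 and 9.32, and its 3 tested probe sets ranged from -0.80 to 0.08. CACHD1, an alpha-2-delta-like protein, gave -0.59 at 11731090_s_at and 0.10 at its other tested probe set, both with overlapping groups.

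Other ion channels that act in the same membrane showed 0 probe sets past the threshold in limma. Of all probe sets tested, 5.39% were higher and 7.13% lower at an unadjusted p under 0.05. Sodium channel genes had 10 tested probe sets, with 0 at an unadjusted p under 0.05 and a median difference of 0.06. The lowest p was at SCN3B, an accessory subunit, with a difference of -0.58 and overlapping groups. Potassium channel genes had 21 tested probe sets, with 1 higher and 1 lower at that level and a median of 0.07. KCNH1 gave -0.51 at 11735587_a_at and 0.19 at its other tested probe set, and KCNA3 gave 0.32. Calcium-activated potassium channel genes, which open on the calcium that these pores admit, had 13 tested probe sets, 2 higher and 1 lower, with a median of 0.03. KCNMA1, the BK channel pore, gave -1.01 at 11720280_at and 0.39 at 11759671_s_at, so its probe sets opposed each other with non-overlapping groups at both. Of the 13, 2 had manganese above all controls and 1 below, against 9.4% and 9.59% of all probe sets tested. KCNMB4, a BK channel accessory subunit of neurons, gave 0.34.

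**Figure D5:**
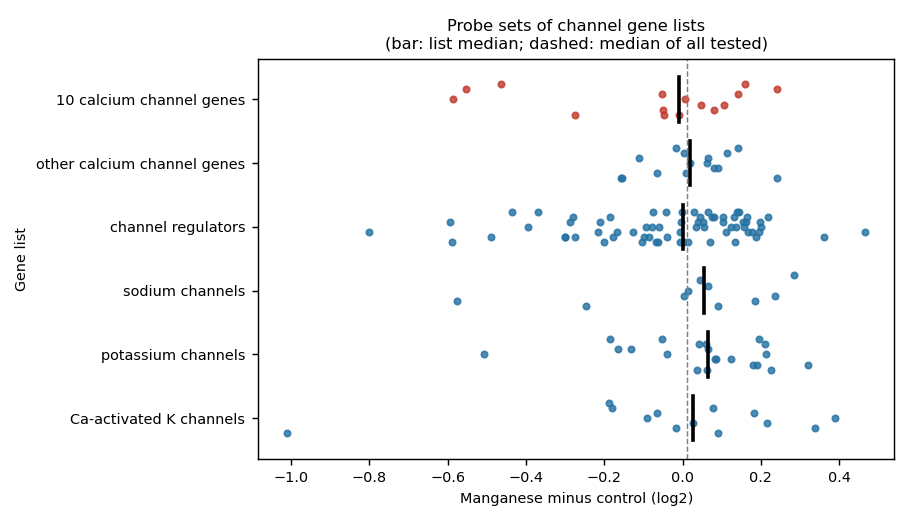
Log2 difference, manganese minus control (horizontal axis), of each tested probe set in the 10 calcium channel genes (top row) and in the lists of related genes, with the list median as a bar and the median of all 29871 tested probe sets as a dashed line. The calcium channel row is centred at -0.01, with the CACNA2D2 and CACNA1C 11755927_a_at points left of -0.4.

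By the Pearson correlation over the 6 arrays, the genes whose pattern was most like CACNA1B 11740129_a_at were APBB2 (r = 0.994), TOE1 (0.992) and RER1 (0.989), out of 13390 genes outside the family. Those most like CACNB3 11720903_a_at were HSD17B10 (r = 0.998), PPP1R14B (0.994) and RPUSD2 (0.993). The 6 points share arrays that fall into 2 groups, and with so few points many genes reach such values. CACNA2D1 was too dim for this comparison.

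Over the tested probe sets, which are not independent, pairs of arrays had a Pearson r of 0.967 to 0.995. Control 1 was far from the rest on the first principal component of the tested genes, at -39.5 against 5.21 to 19.0 for manganese and -6.69 to 7.66 for the other controls. The 24 poly(A) spike-in probe sets averaged 7.70 to 7.83 on the manganese arrays, and 6.09, 7.69 and 5.82 on controls 1, 2 and 3. The part of either in the differences above was not tested beyond the values given against control 2 and without single arrays. Of 14 markers of sympathoadrenal neuroblasts, 13 were analysed and all 13 passed the filter, among them PHOX2A, HAND2, GATA3, TH and DBH. Over these 13 genes the mean signal was 10.68 to 10.80 in manganese and 10.87 to 11.07 in controls, and 26 of their 35 probe sets were lower in manganese, against 47.3% of all probe sets tested. At an unadjusted p under 0.05, 12 of the 35 were lower and 0 higher, against 7.13% and 5.39% of all probe sets tested. After adjustment in limma 0 of the 35 passed. The lowest p-values were those of RET at -1.09, STMN2 at -0.995 and ISL1 at -0.82, each at the probe set of the gene with the smallest p. Control 1 was the highest array at each of these, at 8.65, 12.36 and 7.40. It was also the highest at the other probe sets of STMN2 and ISL1. At the other RET probe sets, 11733418_at and 11733419_a_at, the differences were -0.52 and -0.38, and control 1 was not the highest. For markers of mesenchymal or substrate-adherent cells the mean signal was 6.60 to 6.66 in manganese and 6.47 to 6.71 in controls. Of their tested probe sets 5 were higher in manganese and 6 lower, with a median difference of -0.04. VIM was 0.77 and 0.69 higher in manganese at its 2 tested probe sets (adjusted p 0.171 each in limma). FN1 gave -0.32, -0.39 and -0.49 at its tested probe sets, with overlapping groups. For Schwann cells the mean was 5.48 to 5.64 in manganese and 5.54 to 5.67 in controls, and for fibroblasts 5.09 to 5.24 in manganese and 5.15 to 5.29 in controls. For muscle it was 4.64 to 4.69 in manganese and 4.38 to 4.53 in controls, near the percentile of the filter. The muscle mean includes MYL2 and MYOD1, which had no tested probe set, and MYH7, which passed only through its manganese arrays. The part of these cell type markers in the CACNA2D2 values was not tested.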

How the data were processed

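The deposited table holds log2 values of 49395 probe sets on 6 arrays. Per the submitters' processing notes, the authors ran RMA with Affymetrix Expression Console. RMA corrects background, gives all arrays a common distribution and combines the probes of each probe set, so a shift shared by most transcripts is removed. The sources used here give no versions, scan dates, raw intensities or genome build. Arrays give no counting depth, so their number limits the precision.

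The 102 Affymetrix controls were set aside. Platform annotation gave 1 symbol for 44988 probe sets, several for 1832 and none for 2473, and 0 probe sets paired a calcium channel gene of the 10 with another gene. The 29871 probe sets that passed the 40th percentile filter were fitted with lmFit and eBayes, with group as the only term (limma 3.58.1, R 4.3.3), two-sided, with Benjamini-Hochberg adjustment over all of them and a threshold of 0.05. Intervals are 95% intervals of that fit. The fit was tested on simulated arrays. These had independent noise at each probe set and no array that stood apart, so they do not show how the fit behaves with control 1.

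The genes, lists and tests were chosen with earlier results of these data known. All 10 genes were named. Values in every array are given for the probe set of each gene with the highest mean, and for tested ones with an unadjusted p under 0.05 or a log2 difference more than 0.5 from it, with others added for completeness. Up to 4 genes of each related list were named, by unadjusted p. Alternative settings changed the filter, the use of every probe set, the variance model, the array scaling, the control arrays, the replicate block and a minimum change of 0.26, and left out each array in turn.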

Additional observations from a re-analysis of the deposited data

How the results depend on the processing

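None of the calcium channel probe sets passed under any setting run, 0 in each. The count over all probe sets was 32 (31 higher, 1 lower) and depended on the setting: 19 with 1 probe set per gene, 18 with a minimum change of 0.26, 7 against control 2 alone (a single control, assumed to vary like the manganese arrays), 600 with housekeeping centring (380 higher, 220 lower), and 0 to 75 with each array left out (0 without manganese 2, at 1119 higher and 1224 lower with an unadjusted p under 0.05, and 75 without control 2; 7 without manganese 1, 12 without manganese 3, 13 without control 3). The replicate block gave 15. Deviations from the group mean correlated at r = -0.29, 0.14 and -0.29 for same-numbered arrays, and at -0.38 to 0.48 for the others. Deviations within a group of 3 sum to 0, and control 1 stood apart, so these values cannot decide whether the numbers are pairs. The labels number replicates within each group and name no pairs, so the main fit takes none. The median over the tested calcium channel probe sets was -0.01, and 0.069 with housekeeping centring, which used 9 genes. Over all probe sets tested the median was 0.012, and 0.090 with that centring. Among the 8 named probe sets, signs turned at CACNA1C 11749085_a_at (-0.028) and CACNA1G 11739784_a_at (-0.00066) against control 2 alone. They also turned at CACNB3 11720903_a_at with housekeeping centring (0.028) and with arrays left out (-0.17 to 0.049, above 0 without manganese 3 and without control 2). All 3 were small against their intervals, and the cause was not tested. The other 5 named probe sets kept their sign in every setting that tested them. Among tested probe sets not named, differences also crossed 0 at CACNA1C 11733485_a_at (-0.17 to 0.026) and 11749086_x_at (-0.058 to 0.085). The same held at CACNB3 11760857_a_at (-0.035 to 0.069) and 11720902_a_at (-0.18 to 0.037). Probe sets too dim for the 60th percentile filter, or not the highest of their gene, have no value under those settings. Dim probe sets lie near the floor of the signal, where differences are compressed.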
